A study of Mus musculus with 27 samples.

Results

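Gene expression of 3 ΔHD2/- mammary tumour cell lines was compared with that of 2 ΔHD2/fl lines after 4 days of TGFβ. These are 5 of the 27 libraries of the series, chosen by their genotype and treatment labels, and every one of the 24454 gene identifiers in the deposited table was considered. All lines came from tumours in the thoracic mammary gland of female FVB/N mice carrying the MMTV-PyMT transgene, in which the mouse mammary tumour virus promoter drives the polyoma middle T oncogene in mammary epithelium. Both genotypes carried an allele of Bcl9 and of Bcl9L without the HD2 domain. In ΔHD2/fl lines the other allele of each gene was floxed and still in place. In ΔHD2/- lines the floxed alleles had been removed in culture by an adenovirus encoding Cre and GFP, followed by sorting for GFP, so that these cells made only proteins without HD2. Floxed cells given a virus with GFP alone served as a control in making the lines, but whether the ΔHD2/fl libraries came from those cells is not given in the sources used here. TGFβ was given at 2 ng/ml and renewed every second day. Untreated lines of both genotypes, kept in growth medium for the same 4 days, are used below to say which differences were present without cytokine.

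Bcl9 and Bcl9L are scaffold proteins of the nuclear Wnt pathway. Their HD2 domain binds β-catenin and their HD1 domain binds Pygopus, and the assembled complex helps TCF/LEF factors to activate transcription. TGFβ is a cytokine that halts the growth of many epithelial cells and drives carcinoma cells into epithelial to mesenchymal transition (EMT), in which junction genes such as Cdh1 are reduced and matrix and cytoskeletal genes such as Fn1, Vim and Acta2 are induced. The question of this comparison was which part of the transcriptome of TGFβ-treated tumour cells differed between lines with and without the floxed alleles that still encode HD2. In mice the paper reports comparable tumour growth in both genotypes and proposes that the protein without HD2 is dominant. The ΔHD2/fl lines may therefore not be a control with intact binding.

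The 5 libraries held 23.99 to 28.16 M reads in genes (1 M is 1000000 reads). The limit that 0 reads allow, 3 reads, stands at 0.1065 to 0.1251 CPM in these libraries, which covers counting error only. Replicates are numbered as cell lines. The labels speak of only 2 lines per genotype, from different mice, and do not explain the 3 ΔHD2/- libraries, so lines 2 and 3 may not be independent. Under TGFβ the levels of ΔHD2/- lines 2 and 3 correlated across genes at 0.996, while line 1 correlated with them at 0.906 and 0.907 and with the ΔHD2/fl lines at 0.951 and 0.939. The 2 ΔHD2/fl lines correlated at 0.945 with each other. A difference between the genotypes was therefore required to hold in line 1 too, that is, all 3 ΔHD2/- libraries had to lie on the same side of both ΔHD2/fl libraries. The epithelial label was checked against marker genes. The 19 epithelial junction and simple keratin genes summed to 7260 and 4740 CPM in the ΔHD2/fl lines and to 4080 to 11600 CPM in the ΔHD2/- lines. Epcam was at 361 to 965 CPM and Krt8 at 1016 to 2714 CPM, but the claudin gene Cldn3 was at 135.7 and 69.39 CPM in the ΔHD2/fl lines and at 541.6, 0 and 0 CPM in the ΔHD2/- lines, and Cldn1, Cldn7 and Marveld2 were likewise at or near 0 in lines 2 and 3. The leukocyte marker Ptprc had at most 3 reads and the fibroblast markers Lum and Dpt had 0 reads, while other members of those 2 lists were expressed, Cd14 and Csf1r of the leukocyte list and Col1a1, Col1a2 and Pdgfra of the fibroblast list among them, and their summed levels stand beside the results they moved with.

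Bcl9 and Bcl9l were examined first, because their alleles define the genotypes. Bcl9 was at 32.4 and 42.5 CPM in the ΔHD2/fl lines and at 38.2, 45.9 and 45.4 CPM in the ΔHD2/- lines, and the groups overlapped. Bcl9l was at 144 and 182 CPM in the ΔHD2/fl lines and at 117, 115 and 123 CPM in the ΔHD2/- lines, which gave a log2 fold change of -0.45 ± 0.41 (SE) and an adjusted p of 0.878 in limma. A total per gene mixes reads of the mutant and the floxed allele, so these values do not test the recombination. Ctnnb1, which encodes β-catenin, was at 1009 and 1358 CPM against 1197, 3086 and 2963 CPM, so that line 1 lay within the ΔHD2/fl range.

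Of the 13270 genes tested with limma on log2(CPM + 1), 47 were called (0.354%), that is, passed an adjusted p of 0.05 (Benjamini-Hochberg) with a log2 fold change no smaller than 1 in size. In ΔHD2/- lines 8 of them were higher (0.0603% of all tested genes) and 39 were lower (0.294%). All 47 met the requirement on line 1. Across all tested genes, the ΔHD2/- libraries lay wholly above the ΔHD2/fl libraries for 13.2% and wholly below for 13.6%, so this requirement on its own marked many genes. A wider gap was rarer and unevenly split. The nearest libraries of the 2 groups were at least 1 log2 unit apart for 0.226% of genes in the higher direction and for 1.55% in the lower direction, 30 and 206 genes. Of the 47 called genes 41 had such a gap.

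**Figure D1:**
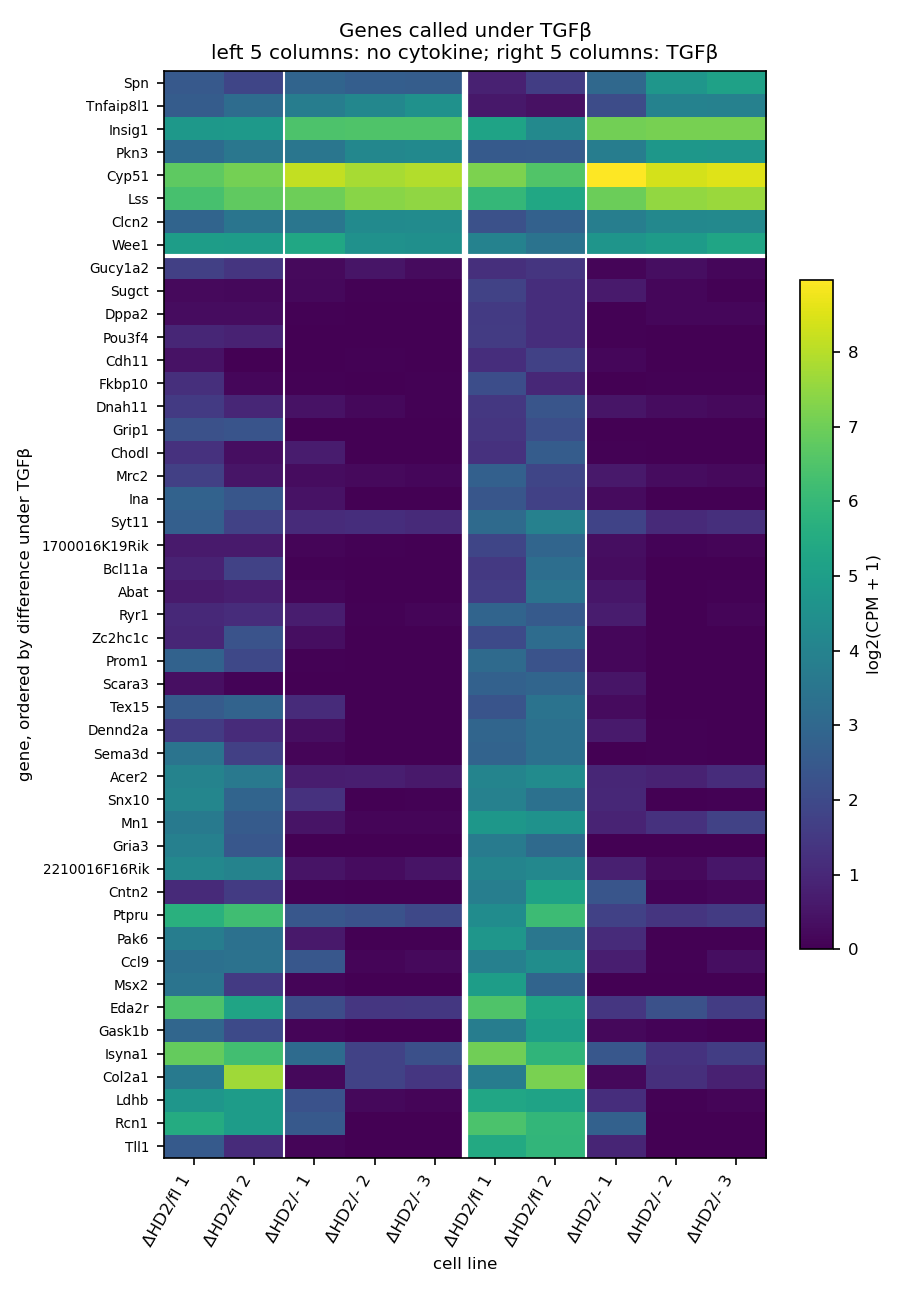
Levels of the 47 called genes, in log2(CPM + 1) by colour, in the 10 untreated and TGFβ-treated ΔHD2 libraries (columns), ordered by the difference under TGFβ. The 8 higher genes stand above the horizontal white line and the 39 lower genes below it, most of them near 0 in all 3 ΔHD2/- lines.

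The calls rested on a spread estimated over all 27 libraries. When only the 5 compared libraries were fitted, limma called no gene (lowest adjusted p 0.095), with 1283 genes at an unadjusted p under 0.05. When edgeR was run on the recovered reads it also called none (lowest adjusted p 0.0504), with 980 genes under 0.05. All 47 genes were under an unadjusted p of 0.05 in both. Lines 2 and 3 carried much of the test. With these lines averaged into 1, the number called was 13, every one of them among the 47, and 12 and 13 genes were called when line 2 or line 3 was left out. Leaving out ΔHD2/fl line 1 or 2 gave 74 and 54 calls, of which 23 and 17 were among the 47. In each of these 5 fits without 1 line, 9 genes stayed called, namely Gask1b, Prom1, Tex15, Dennd2a, Ptpru, 2210016F16Rik, Grip1, Ryr1 and Pak6, all of them lower in ΔHD2/- lines. The others lost the call without at least 1 line. Gask1b, Prom1, Tex15, Dennd2a and Grip1 passed the filter only with ΔHD2/fl libraries, where they were high. A difference was thus built into them, and nothing is read from their calls.

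Line 1 differed less from the ΔHD2/fl lines than lines 2 and 3 did. The difference of line 1 from the ΔHD2/fl mean was the smaller for 35 of the 47 called genes and the larger for 9. Over the 39 lower genes its median was -2.46 in log2(CPM + 1) for line 1 and -2.88 for lines 2 and 3, and over the 8 higher genes 1.47 and 2.04. With line 1 left out, 445 genes were called (3.37% of 13200 tested), 334 lower and 111 higher.

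Line 1 stood apart from lines 2 and 3 for some familiar EMT and matrix genes and others, named here after their values were seen. Vim, the mesenchymal intermediate filament, was at 1191 and 247 CPM in the ΔHD2/fl lines and at 853 CPM in line 1, but at only 1.92 and 2.17 CPM in the other pair. Serpinh1, the collagen chaperone HSP47, was at 197 and 587 CPM in the ΔHD2/fl lines and at 411 CPM in line 1, with 0 reads in lines 2 and 3. The membrane-bound collagenase Mmp14 was at 163 and 641 CPM, then at 267, 0.037 and 0 CPM. Line 1 lay between the ΔHD2/fl lines for these 3 genes, and the other 2 lines lay far below. Mmp9, a gelatinase, went the other way in line 1, at 3086 CPM against 40.9 and 84.7 CPM in the ΔHD2/fl lines and 1.44 and 2.38 CPM in lines 2 and 3. The tumour suppressor locus Cdkn2a was at 55.6 and 41.6 CPM in the ΔHD2/fl lines, 6.02 CPM in line 1 and 50.7 and 45.8 CPM in lines 2 and 3. Lef1, a TCF/LEF factor, was at 4.12 and 0.568 CPM against 0.341, 10.4 and 13.4 CPM. None of these 6 genes was called.

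**Figure D2:**
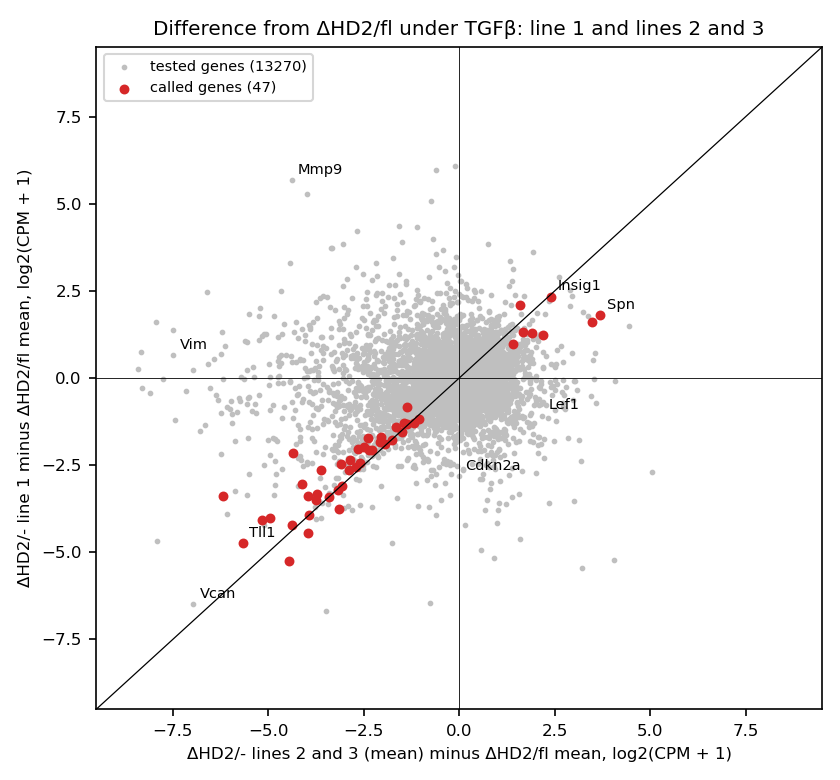
Difference from the ΔHD2/fl mean under TGFβ in log2(CPM + 1), for ΔHD2/- lines 2 and 3 averaged (x axis) and line 1 (y axis), with 1 point per tested gene and the diagonal marking equal differences. The 47 called genes (red) lie on the same side of 0 on both axes, some far from the diagonal (Rcn1 at -6.19 and -3.39, Spn at 3.7 and 1.81), while Vim and Mmp9 were low only in lines 2 and 3 and Cdkn2a was low only in line 1.

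Tll1 and Rcn1 had the largest fold changes of the 39 lower genes. Tll1, a secreted metalloprotease of the tolloid family that processes procollagen, was at 42.2 and 59.4 CPM in the ΔHD2/fl lines, 0.908 CPM in line 1 and 0 CPM in both others. Its log2 fold change was -5.36 ± 0.88 (SE; limma adjusted p 0.00998), and it was not called without ΔHD2/fl line 2 (adjusted p 0.105) or without ΔHD2/- line 2 (0.17) or 3 (0.171). Rcn1, a calcium-binding protein of the endoplasmic reticulum, was at 86.1 and 60.1 CPM against 5.94, 0 and 0 CPM (log2 fold change -5.26 ± 1.03 SE). Col2a1, the fibrillar collagen of cartilage, was at 12.6 and 141.8 CPM against 0.151, 1.29 and 0.75 CPM (-4.72 ± 0.97 SE), with the lower ΔHD2/fl line still above all ΔHD2/- lines. Gask1b, which encodes a Golgi protein, was at 12.97 and 31.96 CPM and was nearly silent in all ΔHD2/- lines, at 0.151, 0.074 and 0 CPM. Its log2 fold change was -4.32 ± 0.44 (SE; limma adjusted p 7.06e-05, and 4.96e-05 to 0.123 over 13 alternatives). Mrc2, a collagen uptake receptor, was lower at smaller size, by -1.94 ± 0.34 (SE). Gask1b and Mrc2 passed the filter only with ΔHD2/fl libraries, so nothing is read from their tests.

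Some other lower genes encode receptors, adhesion proteins and signalling enzymes. Eda2r, a receptor of the tumour necrosis factor receptor family, was at 89.6 and 36.8 CPM against 1.7, 3.66 and 2.04 CPM (log2 fold change -4.12 ± 0.68 SE, limma adjusted p 0.00998). The receptor-type tyrosine phosphatase Ptpru was at 19.4 and 69.1 CPM against 2.35, 1.63 and 1.96 CPM, and the p21-activated kinase Pak6 at 24.9 and 10.7 CPM against 1.14, 0 and 0 CPM. In both the 3 ΔHD2/- lines stood well below the lower ΔHD2/fl line (-3.68 ± 0.47 and -3.76 ± 0.52 SE, limma adjusted p 0.000844 and 0.00126). Prom1, the surface protein CD133, was at 7.48 and 3.94 CPM against 0.114, 0 and 0 CPM (-2.64 ± 0.25 SE, limma adjusted p 2.84e-05). It passed the filter only with ΔHD2/fl libraries, so nothing is read from its test. Gria3, an AMPA receptor subunit, was at 12.3 and 7.49 CPM with 0 reads in all ΔHD2/- lines, which is at least 84.9-fold lower when 3 reads are allowed in each of them. Grip1, a scaffold protein that binds AMPA receptors, was at 1.59 and 3.48 CPM, again with 0 reads in all ΔHD2/- lines, at least 21.7-fold lower. The adhesion protein Cntn2 was at 13.4 and 34.6 CPM against 4.12, 0.0739 and 0.125 CPM, so that line 1 kept part of its level.

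Further lower genes encode metabolic enzymes and regulators of transcription. Ldhb, a lactate dehydrogenase subunit, was at 38.2 and 36.0 CPM against 1.25, 0.037 and 0.083 CPM (log2 fold change -4.8 ± 0.99 SE, limma adjusted p 0.0401). Isyna1, the enzyme that makes inositol phosphate from glucose 6-phosphate, was at 130.5 and 57.2 CPM against 4.39, 1.52 and 2.13 CPM (-4.65 ± 0.92 SE). Msx2, a homeobox transcription factor, was at 31.1 and 6.36 CPM with 0 reads in every ΔHD2/- line, at least 161-fold lower by the same floor. The transcriptional coregulator Mn1 was at 25.7 and 22.8 CPM against 0.87, 1.41 and 2.38 CPM (-3.35 ± 0.5 SE, adjusted p 0.00376). Large differences were also seen in the chemokine Ccl9 (13.8 and 20.1 CPM against 0.681, 0.037 and 0.25 CPM), in 2210016F16Rik (15.4 and 17.1 CPM against 0.719, 0.185 and 0.459 CPM) and in Tex15, a gene of male meiosis (4.05 and 9.69 CPM against 0.189, 0 and 0 CPM). Snx10, Acer2, Sema3d and Dennd2a, with log2 fold changes of -3.3, -3.2, -3.07 and -2.88, stood below both ΔHD2/fl lines in the same way. Low level was common to these genes. In 27 of the 39 lower genes every ΔHD2/- library was under 1 CPM, and in 22 the ΔHD2/fl mean was under 10 CPM. For 8 of the 47 genes 1 or both of the TGFβ-treated ΔHD2/fl libraries were needed to pass the filter of 1 CPM in 2 libraries, so a difference was built into these 8 (Cdh11, Fkbp10, Pou3f4, Scara3, Chodl, Abat, Dppa2 and 1700016K19Rik) and nothing is read from their calls. Leaving out the ΔHD2/fl libraries of all conditions, 18 of the 47 reached 1 CPM in fewer than 2 libraries. Beside the 8 just named, they are Gask1b, Prom1, Tex15, Dennd2a, Grip1, Mrc2, Bcl11a, Ina, Dnah11 and Gucy1a2. A difference was built into these too, and nothing is read from their calls. These are bulk libraries, in which fewer cells expressing a gene and less RNA per cell cannot be told apart.

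Of the 8 higher genes, 3 belong to cholesterol metabolism, in which the transcription factor Srebf2 (SREBP2) activates the enzymes of the pathway and Insig1 holds its precursor in the endoplasmic reticulum. Insig1 was at 36.0 and 17.7 CPM in the ΔHD2/fl lines and at 131.9, 138.1 and 139 CPM in the ΔHD2/- lines, so that all 3 lines stood at nearly the same raised level. Its log2 fold change was 2.38 ± 0.32 (SE; limma adjusted p 0.000972, 0.000829 to 0.141 over 13 alternatives, and 0.0565 without ΔHD2/fl line 2). Cyp51, the lanosterol demethylase, was at 146 and 91.7 CPM against 500.32, 332.13 and 364.84 CPM (1.75 ± 0.36 SE, adjusted p 0.0401), and was also higher in line 1 than in lines 2 and 3. Lss, the lanosterol synthase that makes the substrate of Cyp51, was at 62.1 and 40.0 CPM against 122, 183 and 195 CPM (1.69 ± 0.34 SE, adjusted p 0.0348). Cyp51 and Lss lost the call when either ΔHD2/fl line or either of ΔHD2/- lines 2 and 3 was left out.

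To see how far this extended, 24 genes of cholesterol metabolism were listed after these values were seen, so the list is a description and supports nothing by itself. In 21 of the 24 the ΔHD2/- libraries lay wholly above the ΔHD2/fl libraries (background 13.2%), and in none wholly below. Their median log2 fold change was 1.14, against 0.03 over all tested genes. The median difference from the ΔHD2/fl mean was 1.28 in line 1 and 1.01 in lines 2 and 3, so here line 1 moved as much as the other lines. Srebf2 itself was at 209.9 and 233 CPM against 428, 576 and 602 CPM (limma adjusted p 0.081). Hmgcs1, the enzyme that commits acetyl units to the pathway, was at 107 and 94.4 CPM against 359.9, 219 and 239.7 CPM (adjusted p 0.129). Fdps, which makes farnesyl diphosphate, was at 105.58 and 77.8 CPM against 241.66, 211.05 and 210.35 CPM (adjusted p 0.081), Fdft1 (squalene synthase) at 73.9 and 59.3 CPM against 195, 173 and 172 CPM (0.194), and Sqle, the squalene epoxidase, at 162.58 and 124.18 CPM against 278.1, 402.42 and 421.61 CPM (0.287). None of these 5 passed the test, and 3 of the 24 genes did (background 0.0603% called higher), the same 3 whose values led to the list. Tm7sf2 and Dhcr7 were among those whose groups overlapped. Tm7sf2 was at 10.55 and 6.04 CPM against 25.58, 2.92 and 3.5 CPM. Without cytokine 16 of the 24 genes lay wholly above the ΔHD2/fl lines (background 12.4%), with a median log2 fold change of 0.52 against -0.03 over all tested genes.

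**Figure D3:**
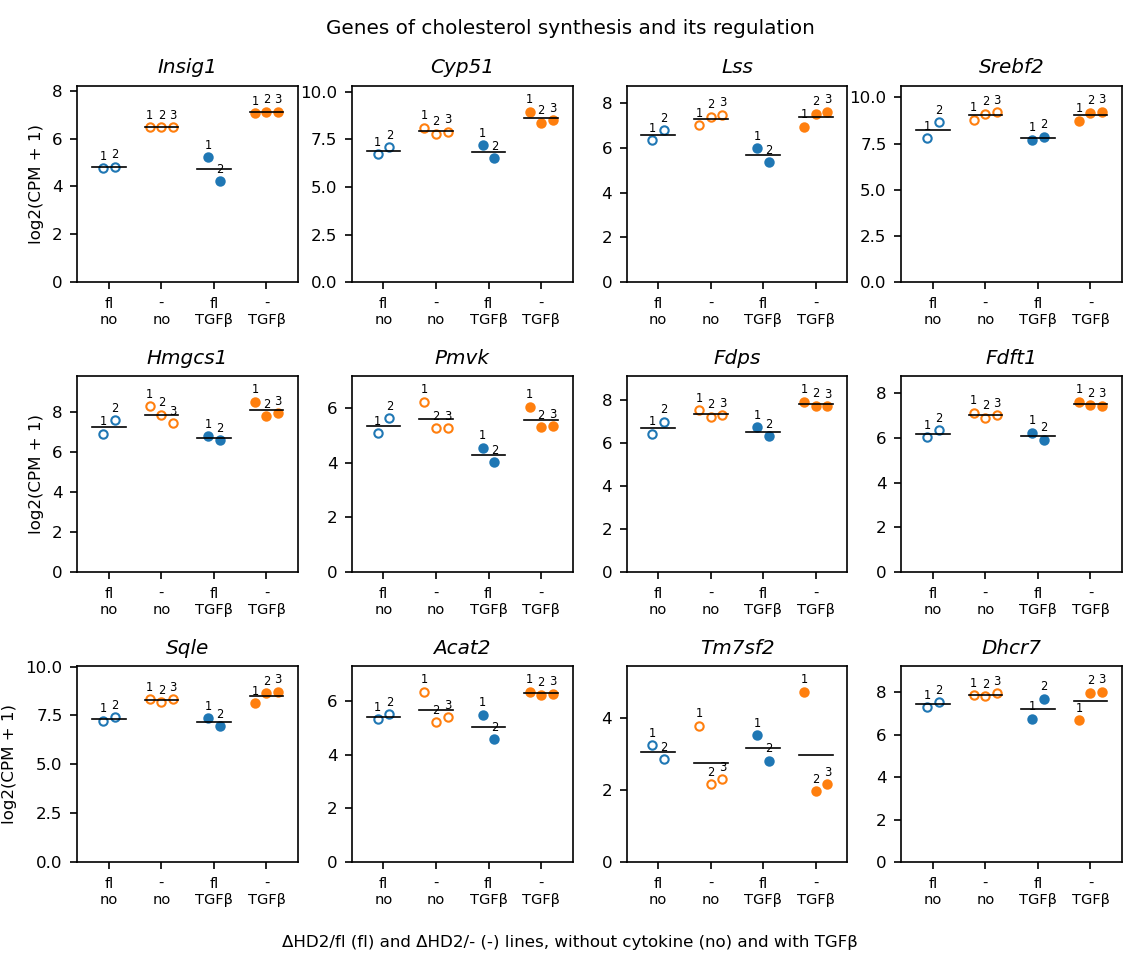
Levels of 12 genes of cholesterol synthesis and its regulation in log2(CPM + 1), with 1 point per cell line (numbered), open for untreated and filled for TGFβ, blue for ΔHD2/fl and orange for ΔHD2/-, and a bar at the group mean. Under TGFβ the 3 ΔHD2/- lines lie above both ΔHD2/fl lines in 10 panels and overlap them for Tm7sf2 and Dhcr7.

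The RefSeq promoter windows (GRCm38.p6, 250 bases before to 50 after the annotated start) of the 3 called cholesterol genes are shown because these genes were raised together, and that of Gask1b because it had the largest fold change of the 9 genes that stayed called without any 1 line. Capitals mark matches, on either strand, to the CCAAT box (CCAAT) and to an AP-1 site (TGANTCA). The letters of a TCF/LEF site (CTTTGAT) and of a sterol regulatory element (TCACNCCAC) were searched too, and the 4 motifs do not overlap each other here. The start used for the Gask1b window lies 1446 bases inside the gene as RefSeq bounds it, and that of Lss 40 bases inside, so other starts of these genes are not shown.
Insig1, chr5:28071162-28071461, plus strand: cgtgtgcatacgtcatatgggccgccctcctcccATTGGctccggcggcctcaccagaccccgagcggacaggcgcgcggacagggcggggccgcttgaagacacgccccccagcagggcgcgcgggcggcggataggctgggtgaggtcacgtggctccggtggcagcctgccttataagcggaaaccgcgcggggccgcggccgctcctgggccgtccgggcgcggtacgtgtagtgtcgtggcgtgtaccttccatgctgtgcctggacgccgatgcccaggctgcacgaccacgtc
Cyp51, chr5:4104648-4104947, minus strand: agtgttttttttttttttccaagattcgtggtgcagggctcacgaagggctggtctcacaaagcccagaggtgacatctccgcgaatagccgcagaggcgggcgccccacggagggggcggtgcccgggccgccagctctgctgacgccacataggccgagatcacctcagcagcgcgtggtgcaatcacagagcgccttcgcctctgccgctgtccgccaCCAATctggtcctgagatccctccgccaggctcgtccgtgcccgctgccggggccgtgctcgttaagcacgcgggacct
Lss, chr10:76531355-76531654, plus strand: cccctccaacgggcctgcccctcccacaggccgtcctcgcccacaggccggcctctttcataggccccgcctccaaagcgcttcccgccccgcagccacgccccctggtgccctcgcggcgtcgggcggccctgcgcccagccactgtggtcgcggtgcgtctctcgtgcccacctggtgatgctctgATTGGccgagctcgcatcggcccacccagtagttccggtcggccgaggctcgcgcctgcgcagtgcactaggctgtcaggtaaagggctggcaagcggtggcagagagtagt
Gask1b, chr3:79885680-79885979, plus strand: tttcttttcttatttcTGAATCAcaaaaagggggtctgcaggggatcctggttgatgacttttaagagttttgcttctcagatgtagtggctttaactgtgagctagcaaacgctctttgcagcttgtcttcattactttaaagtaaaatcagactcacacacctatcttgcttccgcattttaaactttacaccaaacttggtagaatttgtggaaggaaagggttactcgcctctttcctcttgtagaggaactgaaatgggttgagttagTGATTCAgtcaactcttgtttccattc

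Each of the 3 cholesterol genes held 1 CCAAT box, and Gask1b held 2 AP-1 matches. Of the 24 cholesterol genes 17 had a window, and 16 of these held CCAAT. By windows this was 80% of 20, against 37.4% of all 32851 windows in the table. The sterol element letters were in 5% of the 20 windows (Hmgcs1) and in 1.24% of all windows. For the 39 lower genes 27 had a window. AP-1 letters were in 21.2% of their 33 windows and in 7.81% of all windows, and TCF/LEF letters in 3.03% (Zc2hc1c) and in 3.73% of all. These shares are descriptions of short windows and were not tested, and a match is not a bound site.

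The other 5 higher genes had diverse roles. Spn, the sialoglycoprotein CD43 of leukocytes, was at 0.756 and 2.1 CPM against 7.15, 25.4 and 33.7 CPM (log2 fold change 3.07 ± 0.55 SE, limma adjusted p 0.0172). Spn was in the list of 11 leukocyte markers, whose summed level was 39.8 and 53.2 CPM in the ΔHD2/fl lines and 85.2 to 111 CPM in the ΔHD2/- lines, mainly through Cd14 and Spn, and its part in the Spn difference was not tested. Ptprc, Cd3e, Adgre1 and Laptm5 had at most 3 reads in every library, and Cd3e and Adgre1 had 0. Tnfaip8l1 was at 0.491 and 0.32 CPM against 3.29, 14.7 and 14.5 CPM (2.85 ± 0.59 SE), and Pkn3, a protein kinase downstream of phosphoinositide signalling, at 4.76 and 4.97 CPM against 12.9, 26.1 and 25.1 CPM (1.87 ± 0.36 SE). The chloride channel Clcn2 was at 3.67 and 5.97 CPM against 13.32, 17.01 and 17.51 CPM (1.56 ± 0.33 SE). Wee1, the kinase that holds Cdk1 inactive before mitosis, was at 14.9 and 9.73 CPM against 24.6, 29.6 and 37.8 CPM (1.26 ± 0.25 SE, adjusted p 0.0392). In Spn, Tnfaip8l1 and Pkn3 line 1 stood well below lines 2 and 3, between them and the ΔHD2/fl lines.

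The untreated libraries were then used to ask which of these differences were there without cytokine. Without cytokine 73 genes (0.55%) were called between the same lines, and 17 of the 47 were among them. Of the 47, 31 were present without cytokine, that is, the untreated groups did not overlap, differed in the same direction and differed by a log2 fold change of at least 1 (17 called, 14 not called). Examples with nearly the same size in both conditions are Eda2r (log2 fold change -4.19 without cytokine), Ptpru (-3.75), 2210016F16Rik (-3.7), Col2a1 (-4.58) and Isyna1 (-4.19). In 7 lower genes all 5 untreated libraries were under 1 CPM, and these were not classed. In some of them the low untreated levels still lay apart, as for Abat, at 0.56 and 0.703 CPM against 0.0873, 0 and 0 CPM. The remaining 9 genes were absent from the untreated libraries by this rule, 5 of the 8 higher genes (Spn, Pkn3, Lss, Clcn2 and Wee1) and 4 of the 39 lower ones (Ryr1, Mrc2, Chodl and Fkbp10). Chodl and Fkbp10 are among the 8 with a built-in difference under TGFβ, and Mrc2 too passed the filter only with ΔHD2/fl libraries. Absent here means short of a log2 fold change of 1 or overlapping. In 6 of the 9 (Spn, Lss, Clcn2, Ryr1, Mrc2 and Fkbp10) the untreated groups already lay apart in the same direction, by a smaller fold change.

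**Figure D4:**
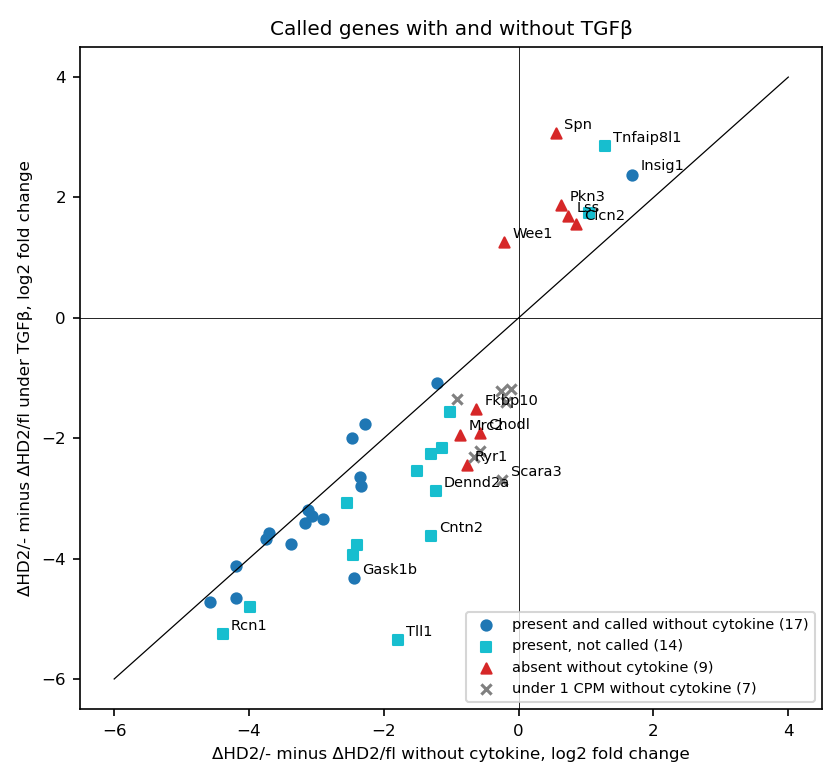
Log2 fold change of ΔHD2/- over ΔHD2/fl lines under TGFβ (y axis) and without cytokine (x axis) for the 47 called genes, with the diagonal marking equal differences and symbols marking the class without cytokine. The fold change differed between conditions by more than 1 log2 unit for 20 of the 47, Tll1, Spn, Scara3, Cntn2 and Gask1b among them, and this change was called for Scara3, which had passed the filter only through the 2 treated ΔHD2/fl libraries.

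Absence by this rule is a matter of thresholds, so the change of the difference itself was tested. Among the 9 absent genes the difference under TGFβ minus that without cytokine had an unadjusted limma p under 0.05 for 7, and none was called after adjustment. Over all tested genes it was under 0.05 for 179 of 13270. The 9 were chosen for a large difference under TGFβ and a small one without, which itself favours such a change. Nothing is therefore read from this count. Wee1 had the lowest adjusted p without a block and Ryr1 with cell line as a block. Untreated Wee1 was at 31.2 and 30.4 CPM against 39.2, 22.3 and 21.0 CPM, so the groups overlapped, and the change was 1.47 ± 0.36 (SE; limma adjusted p 0.777, and 0.259 with cell line as a block). Spn was at 4.65 and 2.7 CPM against 6.42, 5.45 and 5.27 CPM without cytokine, and the change was 2.52 ± 0.78 (SE, adjusted p 1). Ryr1, the calcium release channel of muscle, was at 1.03 and 1.18 CPM against 0.655, 0.045 and 0.0837 CPM without cytokine and at 6.46 and 4.79 CPM against 0.605, 0 and 0.0834 CPM with TGFβ. The change of its difference was -1.68 ± 0.45 (SE, limma adjusted p 1, and 0.0662 with cell line as a block). With a stricter limit, an untreated log2 fold change under 0.58, 4 of the 9 stayed absent.

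Over all tested genes the change between conditions was called for 4 (0.0301%), and for 13 with cell line as a block, the 4 included. It was called for 0 with ΔHD2/fl line 2 or ΔHD2/- line 2 or 3 left out, for 12 without ΔHD2/fl line 1 and for 25 without ΔHD2/- line 1. By edgeR it was called for 0, with 111 genes at an unadjusted p under 0.05. One of them, Scara3, a class A scavenger receptor family member, was among the 47. It was at 5.86 and 6.68 CPM in TGFβ-treated ΔHD2/fl lines and at 0.416, 0 and 0 CPM in ΔHD2/- lines, and without cytokine at 0.302 and 0.074 CPM against 0 reads in all 3 ΔHD2/- lines. It was thus near 0 in untreated lines of both genotypes and higher under TGFβ in the ΔHD2/fl lines (log2 fold change 2.62 ± 0.24 SE, limma adjusted p 3.95e-05). The log2 fold change under TGFβ was -2.69 ± 0.22 (SE; limma adjusted p 6.23e-06), and the change between conditions was -2.45 ± 0.31 (SE; adjusted p 0.00432, and 0.00114 with the block). Among the libraries compared Scara3 passed the filter only through the 2 treated ΔHD2/fl libraries, where it was high, so a difference was built into it, nothing is read from its tests, and no value could be had without either library. Krt75 and Krt32 had the opposite pattern, a difference without cytokine that was not seen under TGFβ. Krt75, a hair follicle keratin, was at 5.73 and 8.51 CPM in untreated ΔHD2/fl lines against 0.044, 0.045 and 0 CPM, and had at most 1 read in any TGFβ-treated library (change 2.93 ± 0.46 SE, adjusted p 0.0307). Krt32, a hair keratin, was at 3.32 and 1.85 CPM against 0.349, 0 and 0 CPM, with 0 reads in every library under TGFβ (1.67 ± 0.27 SE, adjusted p 0.0333). Among the libraries compared, Krt75 and Krt32 reached 1 CPM only in the 2 untreated ΔHD2/fl libraries. A difference was thus built into both, and nothing is read from their tests. Cdh15, a muscle cadherin, was at 9.53 and 9.03 CPM against 0.393, 0 and 0 CPM without cytokine and at 0.038 and 0.071 CPM against 1.63, 1.11 and 1.38 CPM under TGFβ, so that its groups changed places (4.37 ± 0.58 SE, adjusted p 0.00468). For Krt75 and Krt32 both kinds of line were at or near the floor under TGFβ, which bounds how large a difference could be there.

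Some genes had wide gaps under TGFβ and overlapping groups without cytokine, but did not pass the test. Among the genes at least 1 log2 unit apart, 14 of the 30 higher and 36 of the 206 lower ones overlapped without cytokine. In 4 of the lower ones all 5 untreated libraries were under 1 CPM, where overlap says little. The largest gaps on the lower side were in Igf1, Epgn, Edn1, Rasgrp3 and Fbn1. Igf1, insulin-like growth factor 1, was at 4.5 and 25.3 CPM in treated ΔHD2/fl lines with 0 reads in all ΔHD2/- lines, at least 128-fold less by the 3-read floor (limma adjusted p 0.442). Untreated it was at 0 and 0.333 CPM against 0 in the 3 ΔHD2/- lines. Edn1, the vasoactive peptide endothelin 1, was at 19.96 and 22.41 CPM against 2.95, 1.74 and 2.17 CPM (adjusted p 0.12), and Epgn, a ligand of the epidermal growth factor receptor, at 10.9 and 10.4 CPM against 1.1, 0.37 and 0.167 CPM (0.703). Untreated Epgn was at 43.4 and 34.4 CPM against 66.5, 0.135 and 0.126 CPM, which shows how far line 1 could stand from lines 2 and 3. On the higher side the largest gaps were in Olfm1, Nr4a1, Coro2a, Scd1 and Pde2a. Scd1, the stearoyl-CoA desaturase, was at 129 and 96.1 CPM against 305, 344 and 389.6 CPM (adjusted p 0.415), and Nr4a1, an immediate early nuclear receptor, at 5.25 and 3.48 CPM against 17.8, 15.2 and 15.3 CPM (0.521).

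The matrix and mesenchymal programmes of EMT were examined with lists chosen with earlier results of these data known. Of 31 tested genes of collagen and matrix assembly, Tll1 was called lower (background 0.294%) and none higher (background 0.0603%). In this list 15 lay wholly below the ΔHD2/fl lines (background 13.6%) and none wholly above. The median log2 fold change was -1.29, -1.28 in line 1 and -1.67 in lines 2 and 3, against 0.03 over all tested genes. Without cytokine the median of the list was -1.62, with 10 genes wholly below (background 14.9%). Col5a2, a fibrillar collagen chain, was at 655 and 768 CPM against 26.7, 1.41 and 2.67 CPM (log2 fold change -6.83 ± 2.93 SE, limma adjusted p 0.553). Col1a2 was at 19.2 and 39.4 CPM against 0.757, 1.26 and 1.38 CPM (adjusted p 0.817), and Fbn1, which encodes fibrillin 1, at 92.1 and 13.0 CPM against 2.5, 0.074 and 0.459 CPM (0.493). The proteoglycan gene Vcan, named after its values were seen, stood at 154 and 203 CPM against 0.984, 0.813 and 0.125 CPM (-6.8 ± 1.48 SE, adjusted p 0.0596). None of these 4 genes passed the test. Against the direction of the list, Col6a1 was at 1.21 and 165 CPM against 1.93, 683 and 578 CPM.

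Of 14 tested mesenchymal and contractile markers 1 was called lower (background 0.294%) and none higher. Their median log2 fold change was -1.01 under TGFβ, -0.44 in line 1 and -1.3 in lines 2 and 3, and -1.38 without cytokine. The called gene was Cdh11, a cadherin of mesenchymal cells, at 1.25 and 2.31 CPM against 0.114, 0 and 0 CPM, which passed the filter only through these 2 ΔHD2/fl libraries, so a difference was built in and nothing is read from its call. Of the 14 genes 6 lay wholly below the ΔHD2/fl lines (background 13.6%) and 1 wholly above (background 13.2%), S100a4, which encodes a calcium-binding protein, at 36.55 and 47.66 CPM against 55.02, 249.5 and 247.45 CPM (log2 fold change 1.83, limma adjusted p 0.76). Smooth muscle actin Acta2 was at 14.7 and 9.09 CPM against 0.038, 0.185 and 0.125 CPM (adjusted p 0.604) and Tagln, transgelin, at 2.0 and 1.74 CPM against 0.114, 0.074 and 0.083 CPM (0.89), with all 3 ΔHD2/- lines near 0. Fn1, which encodes fibronectin and took 1.26% to 2.91% of reads in ΔHD2/- libraries and 2.43% to 3.68% in the others, and Cdh2, which encodes N-cadherin, did not separate the genotypes, and Itga5 did not either (groups overlapping for all 3). Markers of fibroblasts moved with the matrix genes, though none was called, and their part in these differences was not tested. The 10 of them summed to 94.8 and 60 CPM in the ΔHD2/fl lines, where Col1a1 and Col1a2 of the matrix list made up most of it. In the ΔHD2/- lines they summed to 32.8, 3.81 and 5.42 CPM. Of the defining fibroblast genes Lum and Dpt had 0 reads and Dcn and Fap at most 1 read in each library.

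**Figure D5:**
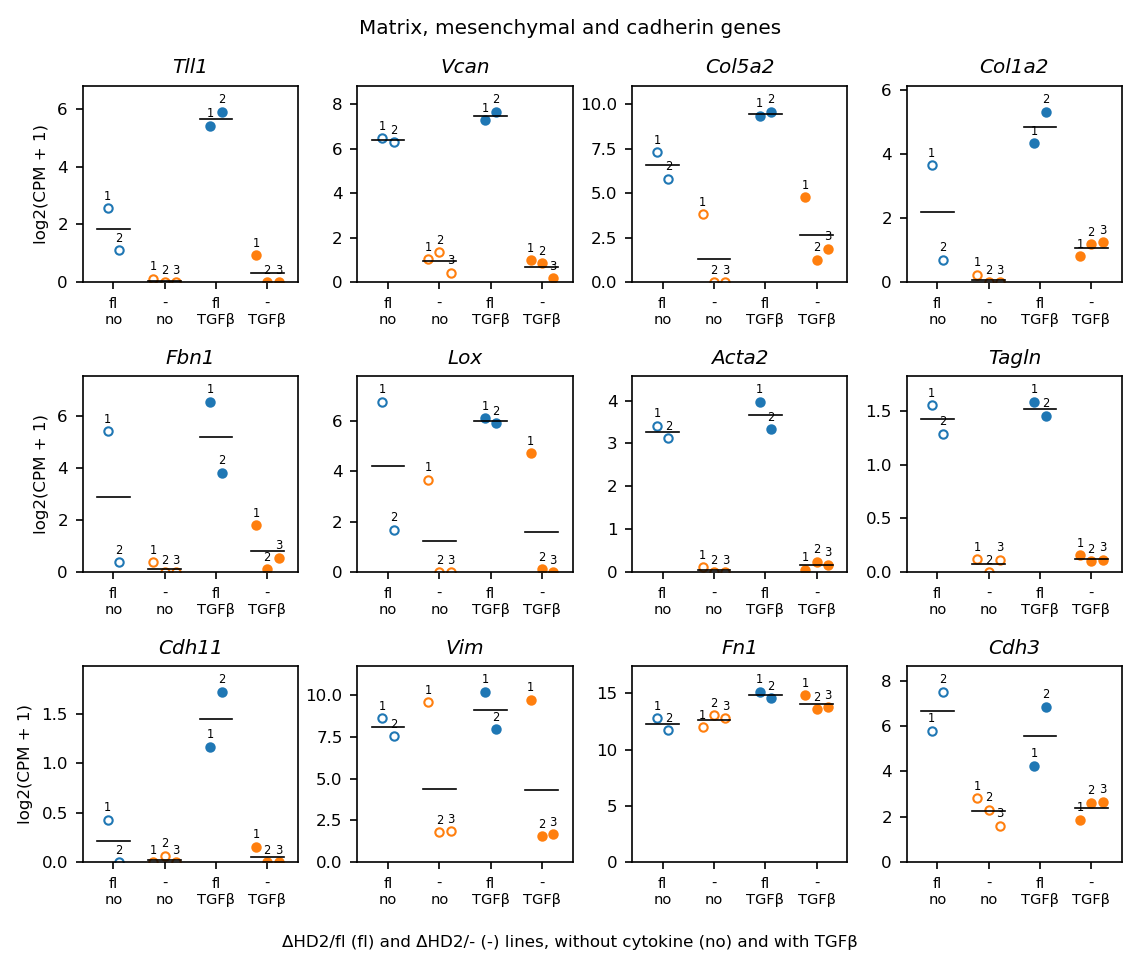
Levels of 12 matrix, mesenchymal and cadherin genes in log2(CPM + 1), with 1 point per cell line (numbered), open for untreated and filled for TGFβ, blue for ΔHD2/fl and orange for ΔHD2/-, and a bar at the group mean. All 3 ΔHD2/- lines are low for Tll1, Vcan, Col1a2, Acta2, Tagln and Cdh3, whereas line 1 is at the ΔHD2/fl level for Vim and Fn1.

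Other lists had few calls or none. Of 10 basal and wound keratin genes with Trp63, a transcription factor of basal epithelium, 5 lay wholly below (background 13.6%) and none was called (median -1.54, and -3.57 without cytokine). Krt6a was at 27.5 and 40.8 CPM against 0.87, 0 and 0 CPM (limma adjusted p 0.159) and Krt16 at 25.6 and 28.8 CPM against 3.94, 0.629 and 0.667 CPM (0.303). Krt6a and Krt6b are close paralogues whose reads could be shared between them. Krt5 was at 2.46 and 909 CPM against 2.69, 26.1 and 49.3 CPM, so the ΔHD2/fl lines themselves differed most. In the 19 epithelial junction and simple keratin genes the median was 0.47 in line 1 and -0.67 in lines 2 and 3, with 0 called. Cdh1, which encodes E-cadherin, was at 703 and 888 CPM against 657, 369 and 390 CPM (adjusted p 1). Cdh3, which encodes P-cadherin, was at 18.1 and 114 CPM against 2.65, 5.14 and 5.34 CPM (-3.17 ± 0.72 SE, adjusted p 0.0723). The 26 TGFβ target and feedback genes had 0 calls and a median of -0.45. Among them the inhibitor Smad7 was at 165 and 188 CPM against 228, 140 and 168 CPM, and the matricellular gene Ccn2 at 1639 and 2652 CPM against 917, 861 and 872 CPM (adjusted p 0.829). The 19 EMT transcription factors and epithelial antagonists (median -0.11), 14 Wnt targets and feedback genes (0.28) and 14 genes of the Bcl9 complex and TCF factors (0.26) also had 0 calls. Axin2, a direct β-catenin target, was under 1 CPM in all 5 libraries, so a difference in it was near the limit of this depth.

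None of 21 proliferation genes was called. Of these, 19 had a positive log2 fold change, against 52.7% of all tested genes, with a median of 0.58 under TGFβ and -0.72 without cytokine, and 2 lay wholly above the ΔHD2/fl lines, a share under the background of 13.2%. The ΔHD2/fl lines differed from each other here. Top2a was at 350 and 111 CPM in them and at 260, 315 and 265 CPM in the ΔHD2/- lines, and Cdk1 at 257 and 58.6 CPM against 164, 283 and 348 CPM. Of 15 tested genes of the p53 list 1, Eda2r, was called lower (background 0.294%), with a median log2 fold change of -0.35. The remaining lists, which covered desmosomes, the cornified envelope, hemidesmosomes, proteases, luminal genes, interferon response, antigen presentation, cytokines and endothelial and adipocyte markers, had none.

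The study published a list of TGFβ-regulated genes shared by ΔHD2 and mutant β-catenin lines. It was chosen partly on these libraries, so its direction here is not independent evidence. By the article's figure legend it set mutant lines against wild-type control lines, at a p of 0.05 and 1.5-fold. The contrast here was with ΔHD2/fl lines at stricter limits, so the counts below do not test how much of that list is recovered. Of its 289 tested genes, 4 were called lower (Ryr1, Syt11, Zc2hc1c and Sugct) and none higher, against 0.294% and 0.0603% of all tested genes. Of the 289, 62 lay wholly below and 14 wholly above the ΔHD2/fl lines (13.6% and 13.2% of all tested genes). The copy used here held 301 symbols, more than the article's text counts. The median log2 fold change of the list was -0.72, but its parts differed between lines, with 0.04 in line 1 and -1.14 in lines 2 and 3. Syt11, a synaptotagmin of vesicle trafficking, was at 7.6 and 14.3 CPM against 2.5, 1.11 and 1.29 CPM (limma adjusted p 0.0495), and Zc2hc1c at 3.06 and 8.03 CPM against 0.114, 0 and 0 CPM (0.0401).

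Lines with the other domain removed gave a comparison from a separate family. The same contrast under TGFβ in the ΔHD1 family, 2 ΔHD1/- against 2 ΔHD1/fl lines, was called for 4 genes over all tested (0.0301%) and for 1 of the 47, Pak6. The difference between the 2 families was called for 22 genes over all tested (0.166%) and for 13 of the 47, but the 47 were selected on one side of that difference, so nothing is read from this count. Pak6 was at 0.084 and 1.92 CPM in ΔHD1/fl and at 17.6 and 23.3 CPM in ΔHD1/- lines, that is, higher in the recombined lines of this family and lower in those of the ΔHD2 family (difference -7.34 ± 0.77 SE, limma adjusted p 0.00021). Tll1 was at 0.168 and 3.73 CPM in ΔHD1/fl and 99.3 and 2.66 CPM in ΔHD1/- lines (difference -8.39 ± 1.31 SE, adjusted p 0.0133). Scara3 stayed at or under 0.715 CPM in all 4 treated ΔHD1 libraries. For Insig1, Cyp51 and Lss the difference between the families did not pass the test (limma adjusted p 0.305, 0.366 and 0.179).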

How the data were processed

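RNA was sequenced from 27 libraries, numbered as 9 cell lines under 3 treatments, in 12 groups. Per the labels, all RNA was extracted together, and stranded mRNA libraries were read singly on a NovaSeq. The authors aligned reads to mm10 with STAR and counted those in RefSeq genes, whether by strand is not given in the sources used here, so the 23 called genes that overlap another annotated gene are uncertain. The deposited values are CPM by the authors, and every value was a whole number of reads within 0.02 of a read. Of 24454 identifiers 24374 matched a symbol.

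In R 4.3.3, limma 3.58.1 (trend and robust) was fitted to log2(CPM + 1) as 12 group means over all 27 libraries, for the 13270 genes that reached 1 CPM in 2 or more of them. Called genes passed an adjusted p of 0.05 (Benjamini-Hochberg) with a log2 fold change no smaller than 1 in size. This scale understates the change of low genes. Other fits used edgeR 4.0.16, statmod 1.5.0, blocks, the compared libraries alone, 0.1 as pseudocount, all genes unfiltered, scaling by median of ratios, other thresholds and 1 line left out at a time. Libraries of 1 line under both conditions deviated together from their group means (correlation 0.697 to 0.723), so a fit of the change between conditions with a cell line block was added beside the first. Whether lines of the same number share a tumour is not given. The first fit treated all 27 libraries as independent, though each line recurs under 3 treatments. With cell line as a random effect the correlation within a line was 0.642. The p-values of the first fit thus count repeated libraries of a line as replicates and do not measure the spread between lines alone.

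Named genes were Bcl9, Bcl9l, preset EMT, Wnt and keratin genes, the 15 lower and all 8 higher called genes of largest change, genes called in the change between conditions or with lines 2 and 3 averaged, called list members and the 5 widest gaps each way with untreated overlap. Other names were chosen after their values were seen, and some genes are not reported here. Members and lists were chosen with earlier results of these data known. The tests were checked on simulated counts, drawn for each library independently, so the recurrence of lines and the likeness of lines 2 and 3 were not modelled. With the spread of the data, 57.5% of 200 genes changed 4-fold were recovered, with 6 false calls. Promoters and positions are from RefSeq (GRCm38.p6).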

Additional observations from a re-analysis of the deposited data

Results flagged for a closer look

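The difference between ΔHD2/- and ΔHD2/fl lines changed between TGFβ and untreated libraries for 4 genes, by limma's test of the change itself. The change was -2.45 in log2 for Scara3, 4.37 for Cdh15, 2.93 for Krt75 and 1.67 for Krt32. Among the libraries compared Scara3 passed the filter only through the 2 treated ΔHD2/fl libraries, and Krt32 and Krt75 only through the 2 untreated ones, where they were high. A difference was thus built into Scara3, Krt32 and Krt75, and nothing is read from their tests.

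The same contrast under TGFβ differed between the ΔHD2 and ΔHD1 families for 13 of the 47 called genes, by limma's test of the difference between families. The difference, ΔHD2 minus ΔHD1 in log2, was -8.39 for Tll1, -7.34 for Pak6, -5.35 for Gask1b, -3.97 for 2210016F16Rik, -3.9 for Syt11, -3.18 for Dennd2a and -3.03 for Scara3. It was -2.79 for Tex15, -2.64 for Prom1, -2.6 for Ryr1, -2.27 for Grip1, -2.19 for 1700016K19Rik and 4.84 for Spn. These genes were called on the ΔHD2 side of that difference, which alone moves it away from 0. Scara3 and 1700016K19Rik passed the filter only with the treated ΔHD2/fl libraries. Gask1b, Dennd2a, Tex15, Prom1 and Grip1 passed it only with ΔHD2/fl libraries of any condition.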

How the results depend on the processing

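The number of genes called between ΔHD2/- and ΔHD2/fl lines under TGFβ, 47 as reported, was 0 with the compared groups only, 0 by edgeR, 13 with lines 2 and 3 averaged, 829 at an unadjusted p of 0.05 and 1.5-fold, and 12 to 445 without 1 line. It was 33 to 67 under the other scaling, filter, pseudocount, random effect and fold settings. The genes changed more than these totals. Of the 47, 30 were called with the cell line random effect, 27 with the pseudocount of 0.1, 45 with the other scaling and 47 without a filter. With the replicate number of the lines as a block it was 115, of which 45 were among the 47. Lines of the same number under TGFβ correlated at 0.0983 and 0.155, and nothing in the labels says that they pair.

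Without cytokine the 73 calls became 0 (compared groups only), 4 (edgeR), 28 (averaged), 977 (unadjusted), 156 (block) and 26 to 749 (without 1 line). The 4 called changes between conditions became 0 with a pseudocount of 0.1, by edgeR and with lines averaged, 10 without a filter, 13 with the block, 25 with a cell line random effect, 171 unadjusted, and 0 to 25 without 1 line. The 22 called differences between families became 41 without a filter, 12 with the random effect, 0 by edgeR, 3 averaged, 1291 unadjusted and 3 to 558 without 1 line. The 236 genes with a gap of 1 became 53 at a gap of 2, 465 with a pseudocount of 0.1 and 240 to 1093 without 1 line. The 9 called genes absent without cytokine became 5 (pseudocount), 14 (no filter), 33 (block), 1 (averaged), 4 (untreated limit 0.58) and 1 to 80 (without 1 line).

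The extremes without 1 line came from leaving out ΔHD2/- line 1 at the upper end and line 2 or 3 at the lower end, and for the change between conditions also ΔHD2/fl line 2. The cause of these moves was not tested. For named genes 1317 alternative values kept direction and side of the threshold, 281 lost the call, 14 gained it and 0 reversed. For list medians, 269 stayed within the spread and 43 moved. Depth limits what can be said of genes under 1 CPM, where a few reads decide a value.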
